A study of Mus musculus with 12 samples.

Results

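The replication-dependent histone genes encode the bulk of the linker and core histones that package newly made DNA. They were chosen as the array rows annotated to a single gene symbol of the Hist1 to Hist4 clusters, or of the H2ac, H2bc, H3c, H4c and H1f families that replaced those names, with the brightest row kept per symbol. This gave 29 genes from 30 rows, of 65956 rows that are not control probe sets. By type they were 5 H1 linker histone genes, 10 H2A, 9 H2B, 3 H3 and 2 H4 genes. They lie on chromosome 13 (the Hist1 cluster), chromosome 3 (the Hist2 cluster) and, for H2bu1-ps, chromosome 11. H2ac14 is listed as a pseudogene by RefSeq and H2bu1-ps is one by name. Another 39 histone rows name several genes each and were kept apart.

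Expression was measured on 12 Affymetrix mouse transcriptome arrays, 2 in each of 6 groups. All 6 groups were HoxB8-ER cells of C57BL/6 background, that is bone marrow progenitors immortalised by the homeobox protein HOXB8 joined to the hormone-binding domain of the estrogen receptor. Estradiol at 0.5 µM keeps such cells dividing as promyelocyte-like cells, and withdrawal of estradiol lets them mature into neutrophils over 6 days. The genotype arrays held wild-type undifferentiated cells, Ezh2-null undifferentiated cells, wild-type neutrophils and neutrophils labelled Ezh2-null, the wild-type marrow being from littermates. The drug arrays held wild-type neutrophils treated either with vehicle or with GSK343, which blocks the enzyme activity of EZH2, a methyltransferase of histone H3. Its dose is uncertain, being 0.5 µM for 9 days in the labels of the samples and 1 µM in the design text. The number of lines per genotype is not stated, so genotype and cell line cannot be told apart. Nor is it stated whether the 2 arrays of a group came from separate cultures, so p-values may reflect technical spread alone.

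Most histone mRNA is made in S phase, when cells copy their DNA. These genes have no introns and their mRNAs end in a stem-loop instead of a poly(A) tail. The stem-loop is bound by SLBP, which carries the mRNA through processing and translation, while NPAT, phosphorylated by cyclin E and CDK2, switches the clusters on. Maturing granulocytes stop dividing, and S-phase histone mRNA is normally lost when DNA synthesis stops. Some members depart from this: the human counterparts of H1f2 and H2bc21 are known to give polyadenylated mRNA as well in cells that have left the cycle, and H1f6, H2ac1 and H2bc1 encode testis variants.

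Promoter sequence was available for 25 of the 29 genes, from RefSeq on GRCm38.p6, as 250 bases before and 50 after the start site. The capitals in the lines below mark matches, on either strand, to 4 motifs. ATTTGCAT is the octamer bound by OCT1 and known from H2B promoters. CCAAT is the box bound by the factor NF-Y. TATAAA is the TATA box, near which many start sites lie. AAACACA is the H1 box, named from H1 promoters. The octamer was in 8 of the 25 windows, 5 of 7 H2B and 3 of 9 H2A, against 1.74% of 32851 RefSeq promoters. CCAAT was in 24 of 25 (37.4% of all promoters), TATAAA in 14 (13.6%) and AAACACA in 7, of which 4 of the 5 H1 genes (7.18%). Those of 6 genes are shown because the results turn on them, H1f1, H2bc12, H2bc18 and H3c3 among the largest differences and H1f2 and H2ac18 because they went the other way from most in wild-type differentiation. The 250 bases before the start site are printed, on the plus strand except H3c3, which is on the minus strand: chr13:23763418-23763667 (H1f1), chr13:23738557-23738806 (H1f2), chr3:96245247-96245496 (H2ac18), chr13:22035571-22035820 (H2bc12), chr3:96269450-96269699 (H2bc18) and chr13:23745522-23745771 (H3c3).
H1f1: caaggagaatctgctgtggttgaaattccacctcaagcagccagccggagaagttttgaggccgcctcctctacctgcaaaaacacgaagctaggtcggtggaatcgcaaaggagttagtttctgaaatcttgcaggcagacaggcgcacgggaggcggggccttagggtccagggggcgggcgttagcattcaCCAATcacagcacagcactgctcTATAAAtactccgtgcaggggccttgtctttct
H1f2: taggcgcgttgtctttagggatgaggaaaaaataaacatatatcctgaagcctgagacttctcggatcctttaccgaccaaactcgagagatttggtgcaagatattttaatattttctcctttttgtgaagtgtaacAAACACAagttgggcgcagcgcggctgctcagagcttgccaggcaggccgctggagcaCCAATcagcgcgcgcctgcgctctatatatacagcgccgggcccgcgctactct
H2ac18: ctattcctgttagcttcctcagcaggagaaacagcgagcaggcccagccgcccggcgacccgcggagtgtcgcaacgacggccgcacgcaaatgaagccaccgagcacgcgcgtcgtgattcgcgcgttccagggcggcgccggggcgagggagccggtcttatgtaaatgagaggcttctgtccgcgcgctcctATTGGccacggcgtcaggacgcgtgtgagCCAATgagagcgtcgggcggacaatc
H2bc12: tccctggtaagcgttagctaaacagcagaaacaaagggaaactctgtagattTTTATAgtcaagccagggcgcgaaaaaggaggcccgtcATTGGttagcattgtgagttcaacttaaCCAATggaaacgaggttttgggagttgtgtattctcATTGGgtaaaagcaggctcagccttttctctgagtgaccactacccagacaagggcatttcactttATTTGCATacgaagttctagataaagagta
H2bc18: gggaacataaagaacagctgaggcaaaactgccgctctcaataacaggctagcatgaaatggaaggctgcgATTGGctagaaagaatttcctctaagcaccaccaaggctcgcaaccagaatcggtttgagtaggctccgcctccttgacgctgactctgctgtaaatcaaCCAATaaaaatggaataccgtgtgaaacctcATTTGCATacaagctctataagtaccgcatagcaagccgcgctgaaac
H3c3: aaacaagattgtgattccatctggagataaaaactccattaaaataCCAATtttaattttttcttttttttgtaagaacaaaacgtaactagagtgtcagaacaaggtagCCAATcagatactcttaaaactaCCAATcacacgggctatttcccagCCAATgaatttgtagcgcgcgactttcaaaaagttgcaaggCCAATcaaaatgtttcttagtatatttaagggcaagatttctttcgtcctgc

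The octamer stands at −30 in H2bc12 and at −48 in H2bc18, counted from the start site to its first base, and the 5 CCAAT matches of H3c3 all lie on the coding strand. H1f1 lacks the AAACACA match that the other 4 H1 windows hold. A TATAAA match need not be a TATA box of the gene. In H2ac12, H2ac15, H2ac18 and H4c1 the only match lies after the start site. In H2bc12 and H2bc22 the only match lies at −198 and −212, on the opposite strand. The H2bc12 window overlaps that of H2ac12 by 277 bases, on the opposite strand, and those of H2bc1 and H2ac1 overlap by 220 bases, so the members of each couple share motif matches. A match describes these letters and is no evidence of binding.

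Values are log2 signals, set against a background that each array's 23 antigenomic probe sets define by their 95th percentile (4.83 to 5.79). Of the 29 genes, 17 were above it on all 12 arrays, 2 (H1f6 and H2ac24) on none and 10 on some. The median over all clusters was 4.54 to 4.65 on the genotype arrays and 3.88 to 3.96 on the drug arrays, and the 2 arrays of a group correlated at 0.984 to 0.995, so levels were compared within each set. H2ac10 and H2ac14 read 15.34 to 19.00, of which only the upper end is near the highest value on any array (19.93). Near-identical histone genes can share probes, so signal cannot be assigned with certainty to a single copy. Ezh2 itself read 11.61 ± 0.06 (SD, n = 2) in wild-type and 9.27 ± 0.25 in Ezh2-null undifferentiated cells, but 8.33 ± 0.02 in wild-type neutrophils and 8.88 ± 0.19 in those labelled Ezh2-null (difference 0.55, adjusted p = 0.0501). The transcript therefore did not check the label in neutrophils, and whether these probes lie in the deleted part was not tested.

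**Figure D1:**
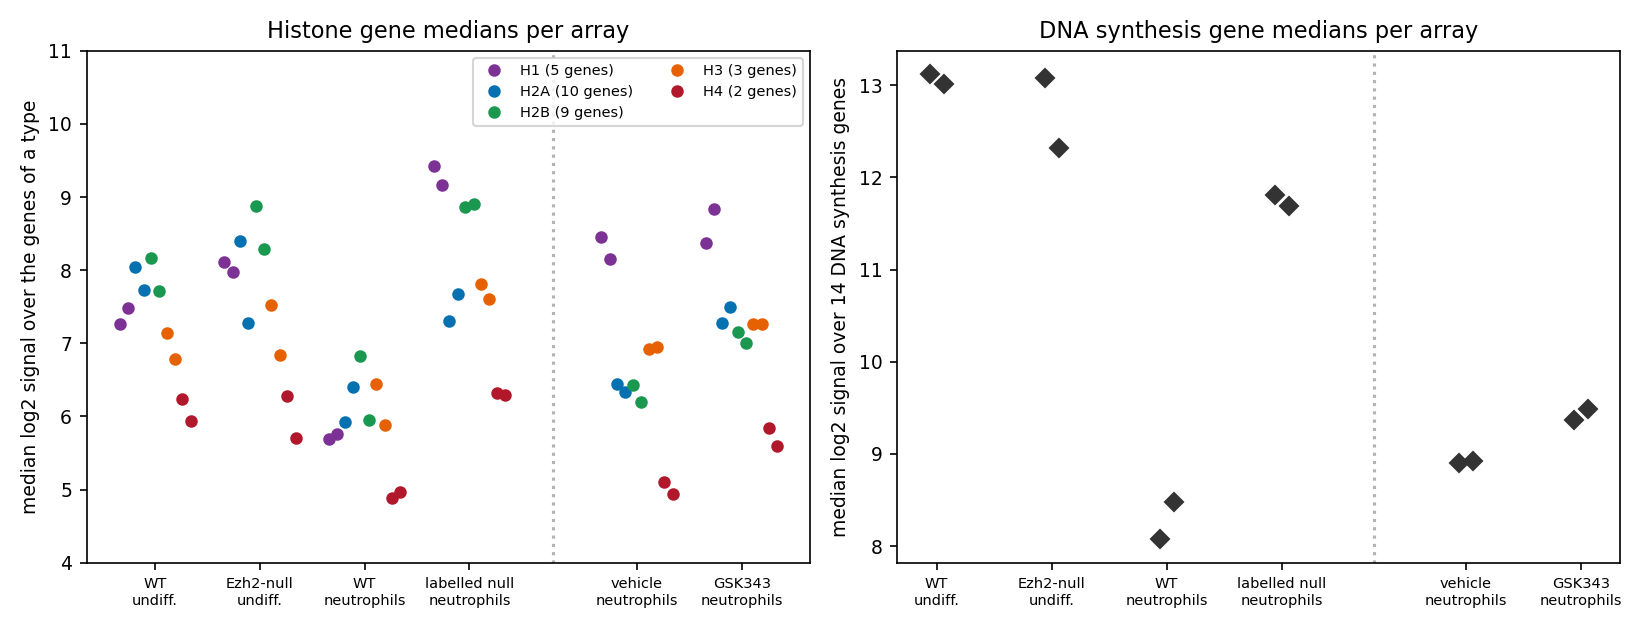
Median log2 signal per array over the genes of each histone type (left) and over 14 DNA synthesis genes (right), with a dot or diamond per array and the genotype arrays left of the dotted line. The H2B medians are 5.95 and 6.82 in wild-type neutrophils against 8.86 and 8.90 in neutrophils labelled Ezh2-null.

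On the genotype arrays, most histone mRNA signals fell when wild-type cells became neutrophils. In the limma fit 20 of 29 genes were lower, 3 were higher and 6 did not pass an adjusted p of 0.05, where 12.2% of all clusters were called lower and 13% higher. The median log2 difference was −1.43 over the histone genes and 0.03 over all clusters. By type, 2 of 5 H1, 8 of 10 H2A, 6 of 9 H2B, 3 of 3 H3 and 1 of 2 H4 genes fell. The H2A genes counted include H2ac12 (adjusted p = 0.000431) and H2ac24 (adjusted p = 0.00392), which were not above background on any array of either stage, so 18 falls were of genes above background in at least 1 group. With each gene that was not above background set at the bound this leaves, or at 0 where there is none, the median was −1.04. Fewer expressing cells and less RNA per cell cannot be told apart in these bulk samples. The fall is described for the genotype arrays only. The median of the 29 genes was 5.87 and 5.90 on their wild-type neutrophil arrays but 6.71 and 6.56 on the vehicle arrays. Over all clusters the median ran the other way (4.64 and 4.61 against 3.90 and 3.95). H1f1 read 5.69 and 5.76 against 10.45 and 9.98 with vehicle, while H2bc21 read 8.36 and 8.47 against 7.59 and 7.98. These levels were not tested across the sets.

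The linker histone genes moved in both directions. H1f1 read 10.03 and 9.66 on the wild-type undifferentiated arrays and 5.69 and 5.76 on the wild-type neutrophil arrays. Its arrays were far apart, a log2 difference of −4.12 (SE 0.31, 17.4-fold lower, adjusted p = 1.42e-05). H1f5, which encodes a linker histone abundant in dividing cells, read 12.03 and 11.02 before and 7.96 and 7.77 after differentiation, a difference of −3.66 (SE 0.463, adjusted p = 0.000302). H1f2 went the other way, from 7.27 and 7.48 to 8.79 and 8.58, with no overlap (difference 1.31, SE 0.18, adjusted p = 0.000517). H1f3 (adjusted p = 0.372) and the testis gene H1f6 (adjusted p = 0.835) did not pass and were not above background in either group.

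Among the H2A genes, which encode the core histone that pairs with H2B, the largest falls were in H2ac10, H2ac15 and H2ac14. H2ac10 read 18.03 and 17.82 before and 15.34 and 15.70 after (difference −2.41, SE 0.209, adjusted p = 3.18e-05). H2ac15 read 10.37 and 10.19 before and 7.58 and 8.15 after (−2.41, SE 0.313, adjusted p = 0.000356). All 4 arrays of each gene separated by stage. H2ac14 fell by 2.23 on the log2 scale (adjusted p = 2.49e-05). H2ac18 and H2ac19, near-identical neighbours on chromosome 3, were higher instead. H2ac18 read 4.91 and 5.19 before, not above background, and 5.87 and 5.70 after, so the rise was at least 1.27-fold (adjusted p = 0.012). H2ac19 read 4.91 and 5.39 before and 5.87 and 5.90 after (difference 0.74, adjusted p = 0.0167). Both of these calls rest on few arrays: without the first wild-type undifferentiated array the adjusted p was 0.0946 for H2ac18 and 0.129 for H2ac19, and without the first wild-type neutrophil array 0.0774 and 0.0651. H2ac19 was also not called without the second wild-type neutrophil array (0.0742). H2ac21 lost its call without the first wild-type undifferentiated array (−1.79, adjusted p = 0.0556).

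The H2B genes, which encode the partner of H2A, differed among themselves. H2bc18 read 11.40 and 11.13 before and 8.42 and 8.55 after, the largest fall of the type (−2.78, SE 0.188, 6.86-fold, adjusted p = 8.38e-06). H2bc12 read 8.39 and 7.71 before and 5.72 and 5.74 after (−2.32, SE 0.264, adjusted p = 0.000158). H2bu1-ps fell by 1.91 on the log2 scale (adjusted p = 0.000167). H2bc21, at 8.16 and 8.84 before and 8.36 and 8.47 after, overlapped between stages (−0.08, 95% interval −0.80 to 0.64). H2bc3 also did not pass, at −0.52, nor did H2bc22 (adjusted p = 0.0693), which was not above background in wild-type neutrophils and so was at least 1.2-fold lower.

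All 3 H3 genes were lower, but by unequal amounts. H3c8 read 7.14 and 6.78 before and 4.54 and 4.76 after, where it was not above background, so the fall was at least 2.76-fold (adjusted p = 0.00021). H3c3 went from 8.03 and 7.98 to 7.19 and 7.33 (−0.74, adjusted p = 0.0437) and H3c7 from 6.85 and 6.71 to 6.44 and 5.89 (−0.61, adjusted p = 0.0475). The last 2 differences were the weakest called. H3c3 lost its call without any of the 4 compared arrays (adjusted p 0.103 to 0.177). H3c7 lost it without either undifferentiated array (0.107 and 0.208) or the second neutrophil array (−0.34, adjusted p = 0.3). H4c1 read 6.66 and 6.51 before and 4.93 and 5.28 after, where it was not above background, a fall of at least 2.13-fold (adjusted p = 0.000215). H4c2, not above background in wild-type neutrophils either, was at least 1.07-fold lower and did not pass (adjusted p = 0.0526). Across all types, 24 of the 29 genes had both neutrophil arrays below both undifferentiated arrays (26.9% of all clusters) and 3 had both above (33.2%). These genes share the same arrays and may share probes, so they are not separate evidence.

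**Figure D2:**
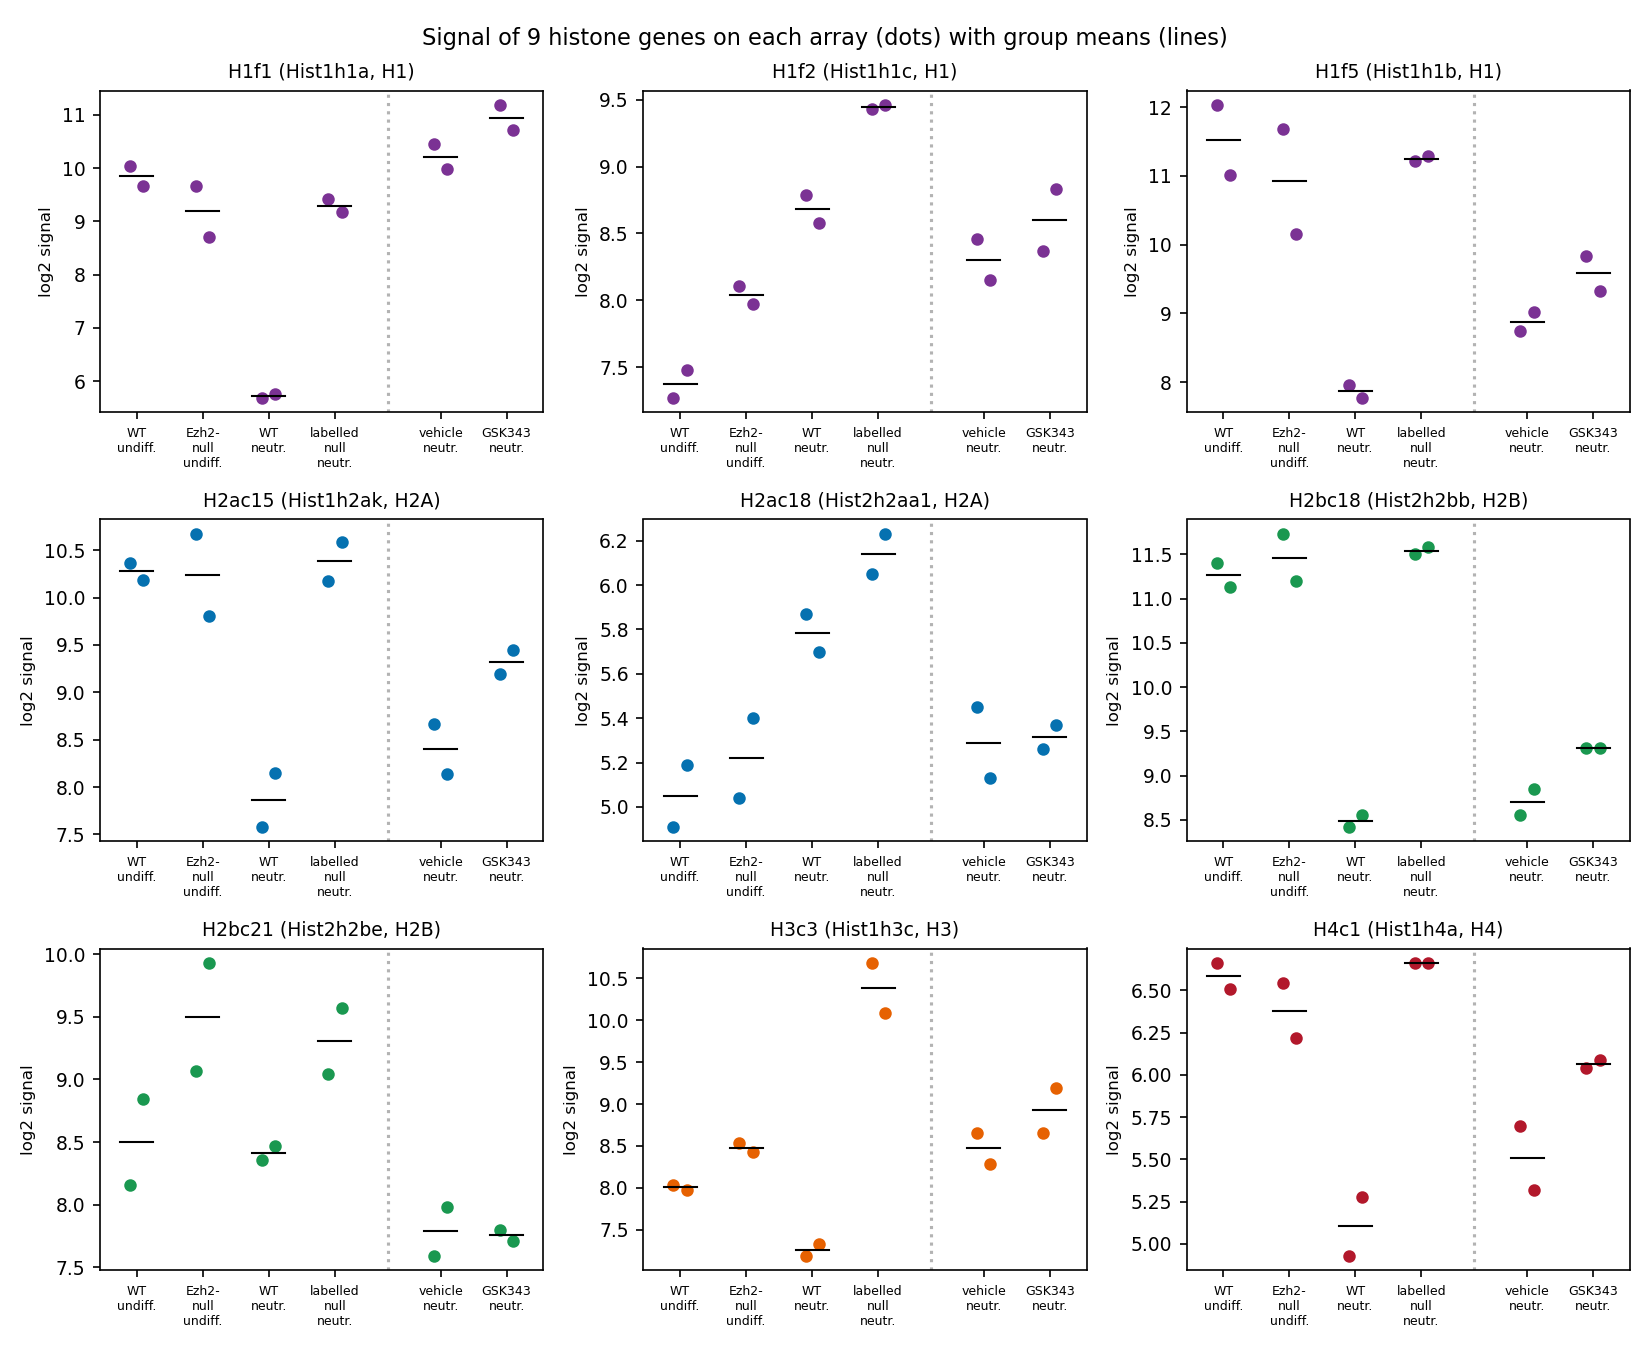
Log2 signal of 9 histone genes on each array (dots, 2 per group) with group means (horizontal lines); the dotted line parts genotype from drug arrays, and each panel has its own axis, which does not start at 0. H1f1 falls to 5.69 and 5.76 in the wild-type neutrophils of the genotype arrays, while H1f2 is higher in both neutrophil groups than in the undifferentiated cells of the same genotype.

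In the Ezh2-null line the same step gave no called fall. There were 5 genes higher, 0 lower and 24 not called, where 11.7% of all clusters were called higher and 10.7% lower. At an unadjusted p under 0.05, 7 of the 29 passed (32.2% of clusters). The median log2 difference was 0.08 over the histone genes and 0.01 over all clusters. H1f2 rose from 8.11 and 7.97 to 9.43 and 9.46 (difference 1.41, SE 0.18, adjusted p = 0.00051). H2ac18 rose from 5.04 and 5.40 to 6.05 and 6.23 (0.92, adjusted p = 0.00465), and H2ac19 from 5.06 and 5.38 to 6.48 and 6.30 (1.17, adjusted p = 0.00181). These 3 genes were called higher in both lines. Of them, H2ac18 and H2ac19 are near-identical and may share probes, so they are not separate evidence. Their wild-type calls were lost without some single arrays. The other risers were H3 genes. H3c3 went from 8.53 and 8.43 to 10.68 and 10.08 (1.90, SE 0.232, 3.72-fold, adjusted p = 0.000394), and H3c7 from 7.10 and 6.84 to 7.81 and 7.60 (0.74, adjusted p = 0.0243). H3c7 lost its call without the second Ezh2-null undifferentiated array (0.60, adjusted p = 0.105) or without the first (0.63, adjusted p = 0.139) or the second (0.84, adjusted p = 0.0551) neutrophil array labelled Ezh2-null.

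H1f1 stayed bright, at 9.67 and 8.70 before and 9.42 and 9.17 after (0.10, 95% interval −0.60 to 0.80), and so did H1f5, at 11.68 and 10.16 before and 11.21 and 11.29 after (0.33, −0.72 to 1.37). Their undifferentiated arrays spread over more than the difference between stages. H1f3 was at 0.39 (adjusted p = 0.12). H2ac12 (0.00, −0.39 to 0.39), H2bc3 (−0.02, −0.62 to 0.58), H3c8 (−0.25, −0.88 to 0.37) and H4c1 (0.28, −0.12 to 0.68) had the smallest fitted differences of their types, and none passed. H2ac12 was above background on 1 of these 4 arrays. The largest fall in signal was 0.61, for H2ac21, which did not pass.

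**Figure D3:**
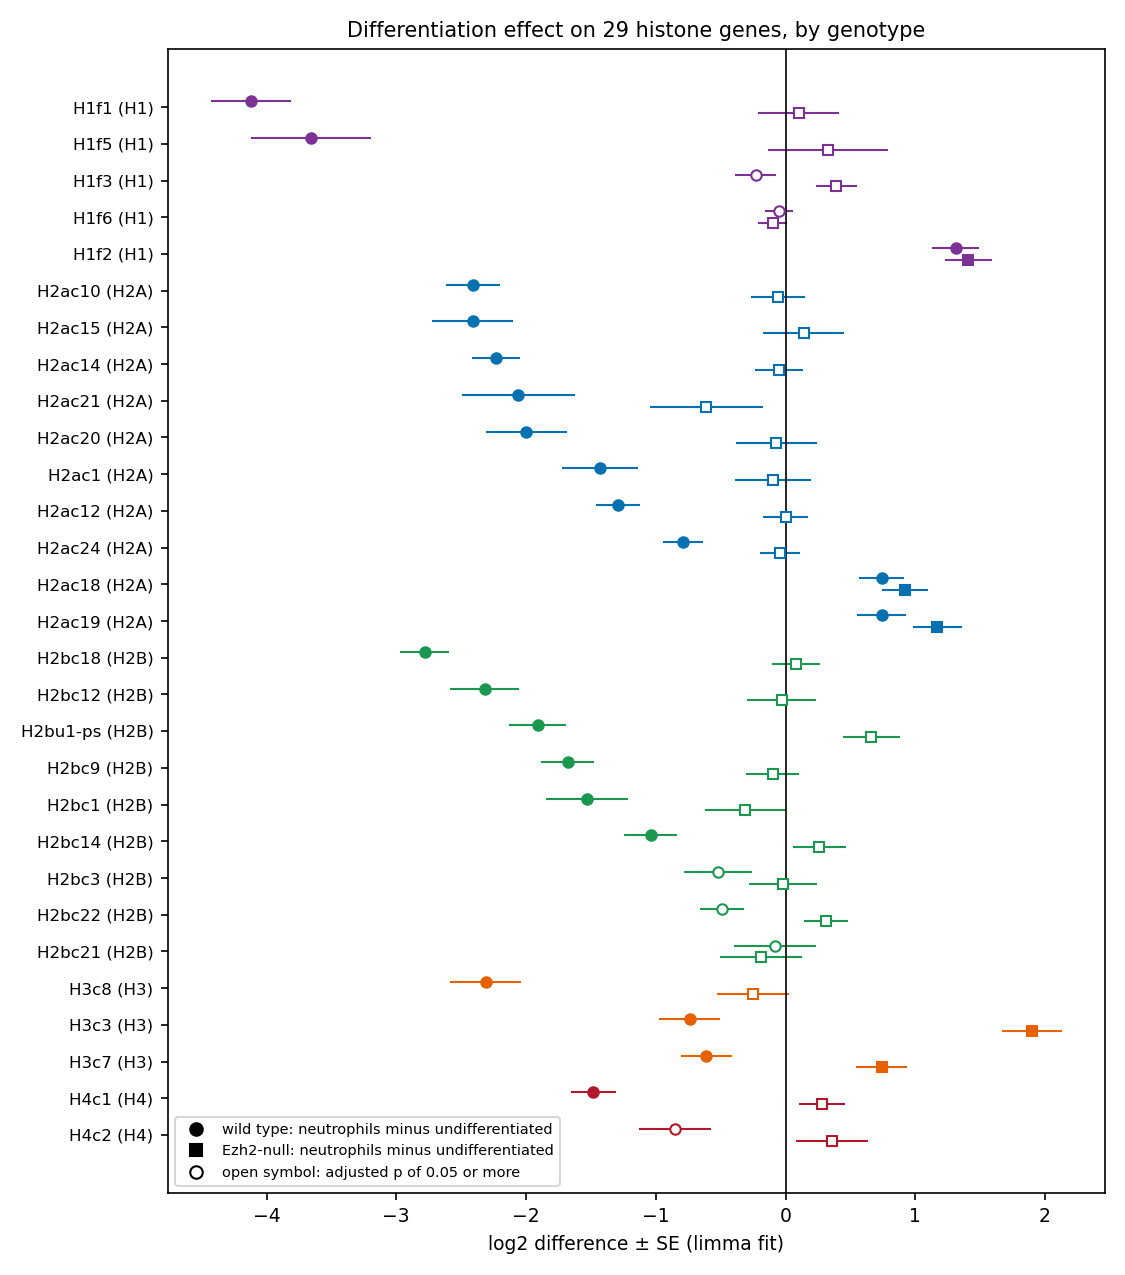
Log2 difference between neutrophils and undifferentiated cells for each of the 29 histone genes, with bars of 1 standard error from the limma fit, circles for wild-type cells and squares for the Ezh2-null line, and filled symbols for adjusted p under 0.05; genes not above background are drawn at their fitted difference. Circles reach −4.12 (H1f1), while squares lie between −0.61 and 1.90.

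Before differentiation 1 of 29 histone genes differed between the lines. H2bu1-ps was the gene called, where 1.65% of clusters were called higher and 1.34% lower. It read 7.55 and 7.23 in wild-type and 8.97 and 8.29 in Ezh2-null undifferentiated cells (1.24, SE 0.219, adjusted p = 0.0166). This call was lost without the first (1.40, adjusted p = 0.0531) or second (1.08, adjusted p = 0.127) wild-type array, and without the first Ezh2-null array 2 genes were called. The median difference was 0.12 over the 29 genes and −0.01 over all clusters. Of the 29 differences 21 were positive, against 47.8% of all clusters. Genes on the same arrays can shift together and are not separate evidence. The largest difference not called was that of H2bc21, named after its values were seen. It was 1.00 (95% interval 0.28 to 1.71, adjusted p = 0.188), with arrays that did not overlap. H1f2 was at 0.66 (adjusted p = 0.113), H1f1 at −0.66 (adjusted p = 0.45) and H1f5 at −0.60 (adjusted p = 0.734). H2ac20 (0.01), H2bc9 (0.14), H3c8 (0.07) and H4c2 (0.01) were the smallest of their types, with 95% intervals as wide as −0.70 to 0.71 for H2ac20.

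After differentiation, histone genes were higher in the neutrophils labelled Ezh2-null. In the fit 21 of 29 were higher and 0 lower than in wild-type neutrophils, where 6.75% of clusters were called higher and 5.06% lower. The median difference was 1.56, against −0.03 over all clusters (1.28 with genes not above background at their bound or at 0), and each of the 29 genes had both arrays above both wild-type arrays (23.6% of clusters did). The called genes comprised 3 of 5 H1, 7 of 10 H2A, 6 of 9 H2B, 3 of 3 H3 and 2 of 2 H4 genes. Of the 21, 16 kept the call whichever array was left out. These differences rest on the same 2 wild-type neutrophil arrays, whose histone median was below that of the vehicle arrays. The 29 genes share the arrays compared and may share probes, so their counts are not separate evidence.

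H2bu1-ps had the largest difference, with 5.60 and 5.38 in wild-type neutrophils and 9.37 and 9.21 in those labelled Ezh2-null (3.80, SE 0.219, 14-fold, adjusted p = 1.32e-05), 1 of the wild-type arrays being above background. H1f1 read 5.69 and 5.76 against 9.42 and 9.17 (3.57, SE 0.31, 11.8-fold, adjusted p = 0.000134), and H1f5 7.96 and 7.77 against 11.21 and 11.29 (3.39, SE 0.463, adjusted p = 0.00152). For both linker genes the values labelled Ezh2-null lay within the range of the 4 undifferentiated arrays. H1f2, already raised in wild-type neutrophils, was higher again, at 8.79 and 8.58 against 9.43 and 9.46 (0.76, adjusted p = 0.0239). That call was lost without any of the 4 arrays compared (adjusted p 0.0567 to 0.131). H1f3, not above background in wild-type neutrophils, was at least 1.12-fold higher and did not pass (adjusted p = 0.0721), and H1f6 was not above background in either group.

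H2ac15 (2.52, SE 0.313, adjusted p = 0.000906), H2ac10 (2.42, SE 0.209, adjusted p = 0.000129) and H2ac14 (2.23, SE 0.185, adjusted p = 0.000101) led the H2A genes. H2ac15 read 7.58 and 8.15 in wild-type neutrophils and 10.18 and 10.59 in those labelled Ezh2-null. H2ac18 did not pass (0.35, 95% interval −0.04 to 0.75). H2ac12 was called (adjusted p = 0.000571) but was above background on only 1 of the 4 arrays, labelled Ezh2-null, so no fold is given. Of the H2B genes, H2bc18 read 8.42 and 8.55 against 11.50 and 11.58 (3.06, SE 0.188, 8.33-fold, adjusted p = 1.8e-05) and H2bc12 5.72 and 5.74 against 8.14 and 8.26 (2.47, SE 0.264, adjusted p = 0.000404). H2bc22 had the smallest fitted difference. It was not above background in wild-type neutrophils and was at least 1.24-fold higher, which did not pass (adjusted p = 0.079). H2bc21, named after its values were seen, was at 0.88 (adjusted p = 0.124).

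H3c3 was the H3 gene furthest apart, 7.19 and 7.33 against 10.68 and 10.08 (3.12, SE 0.232, 8.67-fold, adjusted p = 5.62e-05). The values labelled Ezh2-null were also above all 4 undifferentiated arrays, which read 7.98 to 8.53. H3c8, not above background in wild-type neutrophils, differed by at least 2.43-fold (adjusted p = 0.00114), and H3c7 by 1.54 (adjusted p = 0.00102). H4c1 was at least 2.25-fold higher (adjusted p = 0.000567), with 6.66 on both arrays labelled Ezh2-null. H4c2 was at least 1.38-fold higher (adjusted p = 0.0208), a call lost without any of the 4 arrays (0.0724 to 0.101). The same loss on leaving out an array touched H2ac1 (adjusted p 0.0859 without the first wild-type array and 0.0901 without the second array labelled Ezh2-null), H2bc1 (up to 0.0593) and H2ac24 (up to 0.0929), the last of which was not above background in either group.

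Markers of other cell kinds and stages differed between the same arrays. All 7 mast cell genes and all 8 erythroid genes listed were called higher in the neutrophils labelled Ezh2-null than in wild-type neutrophils. Of all clusters, 6.75% were called higher and 5.06% lower there. The log2 of the summed mast cell signal was 8.53 and 8.83 in wild-type neutrophils and 19.32 and 19.37 in those labelled Ezh2-null, and 17.97 to 18.88 in undifferentiated cells, where Cpa3, a mast cell protease gene, alone read 17.95 to 18.86. The summed erythroid signal was 7.99 and 8.0 in wild-type neutrophils, 17.52 and 17.76 in those labelled Ezh2-null, and 15.28 to 15.71 in undifferentiated cells, where Car2 alone read 15.27 to 15.71. The other erythroid genes, Klf1, Gata1, Epor, Alas2, Rhag, Aqp1 and Ermap, were above background on both arrays labelled Ezh2-null and on no other array.

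Progenitor genes were higher in the neutrophils labelled Ezh2-null for 4 of 8, the stem cell factor receptor Kit (5.35, adjusted p = 3.82e-06), Mpo, which encodes myeloperoxidase (3.48), the transcription factor gene Myb (2.90) and Cd34 (2.25). Their summed signal was 10.53 and 10.63 in wild-type neutrophils, 13.84 and 13.23 in those labelled Ezh2-null and 18.42 to 18.91 in undifferentiated cells. All 8 fell in wild-type differentiation and 7 of 8 in the Ezh2-null line (12.2% and 10.7% of all clusters). Macrophage genes were lower for 4 of 7, with sums of 17.95 and 18.26 in wild-type neutrophils and 15.71 and 15.99 in those labelled Ezh2-null. In each line's differentiation 6 of 7 had risen (13% of all clusters in wild-type cells and 11.7% in the Ezh2-null line). Of the 5 lymphocyte genes 1, Cd79b, was higher.

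Neutrophil markers rose with differentiation for 10 of 10 genes in wild-type cells and 9 of 10 in the Ezh2-null line. The shares of all clusters called higher were 13% and 11.7%. Their summed signal was 20.77 and 21.33 in wild-type neutrophils and 20.16 and 20.66 in those labelled Ezh2-null, against 11.32 to 12.77 before differentiation, but S100a8 and S100a9, at 17.95 to 19.38 in both neutrophil groups, make up much of it. Between the neutrophil groups 9 of 10 differences were negative and 3 genes were called lower in those labelled Ezh2-null. These were the granule genes Camp (−4.74, 26.6-fold, adjusted p = 0.000103) and Ltf (−1.98, adjusted p = 0.00985) and the transcription factor gene Cebpe (−1.77, adjusted p = 0.0318). The part of these marker differences in the histone signals was not tested.

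Genes of DNA synthesis and its control were read from the same arrays. Their median per array was 13.01 and 13.12 in wild-type and 12.32 and 13.08 in Ezh2-null undifferentiated cells, 8.07 and 8.48 in wild-type neutrophils, and 11.81 and 11.69 in neutrophils labelled Ezh2-null. All 14 measured genes fell in wild-type differentiation and 9 fell in the Ezh2-null line. All 14 were higher in neutrophils labelled Ezh2-null than in wild-type ones, with a median of 2.61. For this list and the lists that follow, the shares over all clusters were 12.2%, 10.7% and 6.75%, in the same order of comparisons. Cdc6, which loads the replicative helicase, differed by 4.22 (SE 0.194, adjusted p = 3.11e-06), Mcm2, a subunit of that helicase, by 3.99 (SE 0.204) and Rrm2, of ribonucleotide reductase, by 3.74 (SE 0.347). Their part in the histone differences was not tested.

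A further list held genes that switch on histone genes or process their mRNA. Of 18 measured, 15 were lower and 1 higher in wild-type differentiation, 8 lower and 1 higher in the Ezh2-null line, and 9 higher in neutrophils labelled Ezh2-null against wild-type. Slbp, the stem-loop binding protein, fell by 1.13 in wild-type cells (adjusted p = 0.000249), was at 0.09 in the Ezh2-null line (adjusted p = 0.743), and was 1.07 higher in neutrophils labelled Ezh2-null (SE 0.139, adjusted p = 0.00116). Npat fell in both lines (−2.52 and −1.28) and was 0.98 higher in neutrophils labelled Ezh2-null (adjusted p = 0.00368). Ccne1, which encodes cyclin E1, rose in the Ezh2-null line (2.08, adjusted p = 0.0119) and differed by 3.27 between neutrophils (SE 0.474, adjusted p = 0.00209). Ccne2 fell by 2.24 in wild-type cells (adjusted p = 0.000608), and Srrt, which links capped histone mRNA to its processing, fell by 1.68 (adjusted p = 0.000103).

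Histone chaperones, which carry new histones to DNA, were lower for 10 of 12 genes in wild-type and 9 of 12 in Ezh2-null differentiation, and higher for 8 of 12 in neutrophils labelled Ezh2-null. Asf1a fell by 3.25 in wild-type cells (adjusted p = 9.44e-07) and Chaf1a, the large subunit of the chromatin assembly factor, fell by 3.18 (adjusted p = 3.41e-06). Nasp, the chaperone of the soluble H3-H4 store, was 1.61 higher in neutrophils labelled Ezh2-null (SE 0.168, adjusted p = 0.000344). Of 8 replacement histone genes, whose mRNAs are made outside S phase too, 5 fell in wild-type cells and 4 fell in the Ezh2-null line. Both counts include H1fx, which was not above background on any array. In neutrophils labelled Ezh2-null, 4 were higher. H2afx, the variant phosphorylated at DNA breaks, fell by 3.88 (SE 0.499, adjusted p = 0.000336) and was 2.49 higher in neutrophils labelled Ezh2-null (SE 0.499, adjusted p = 0.0109).

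The difference between the lines' responses to differentiation was tested directly, as the genotype difference in neutrophils minus that in undifferentiated cells. For 16 of 29 histone genes it was called, all higher, where 2.77% of clusters were called higher and 1.65% lower. The median was 1.35, against −0.02 over all clusters. H1f1 (4.22, SE 0.439, adjusted p = 0.00102) and H1f5 (3.99, SE 0.654, adjusted p = 0.01) led, while H1f2 (0.10, 95% interval −0.48 to 0.68), H2ac18 (0.18, −0.38 to 0.74) and H2bc21 (−0.11, −1.13 to 0.90) did not pass. H3c7 was the smallest H3 difference (1.35, adjusted p = 0.0273) and H4c2 did not pass (adjusted p = 0.149). Of the 16 called genes, 12 were above background on an array of all 4 groups. H2bc9, H3c8 and H4c1 were not in wild-type neutrophils, and H2ac12 was not in 3 of the 4 groups, so the fitted sizes of these have no exact meaning. Without the first wild-type undifferentiated array, or without the second neutrophil array labelled Ezh2-null, 9 genes were called, and 9 of the 16 kept the call whichever array was left out. All 14 DNA synthesis genes, 7 of 12 chaperones and 4 of 18 histone mRNA genes were called higher in this test.

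GSK343 gave no called histone gene. In the limma fit 0 of 29 genes passed, and 1 of all clusters did (0.00152%). At an unadjusted p under 0.05, 14 of the 29 passed, against 6.01% of clusters. The differences were nearly all positive, 28 of 29, where 50.1% of all clusters were positive. Their median was 0.55 against 0.00 over all clusters (0.51 with genes not above background at their bound or at 0). Both GSK343 arrays were above both vehicle arrays for 23 of 29 genes (19.5% of clusters). By type the medians were 0.33 for H1, 0.60 for H2A, 0.58 for H2B, 0.43 for H3 and 0.70 for H4. No count was above 0 in any other setting tried.

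H1f1 read 10.45 and 9.98 with vehicle and 11.18 and 10.71 with GSK343, without overlap (0.73, 95% interval 0.03 to 1.43, adjusted p = 0.808). H1f5 was at 0.70 (−0.34 to 1.75) and H1f2 at 0.29 (−0.11 to 0.70). H1f3 and H1f6 were not above background with vehicle, H1f6 with neither treatment, and did not pass. The smallest differences of the other types were H2ac19 (0.01, −0.41 to 0.44), H2bc21 (−0.03, −0.74 to 0.69), H3c7 (0.17, −0.27 to 0.61) and H4c1 (0.55, 0.15 to 0.95). H2ac1, named after its values were seen as the largest, read 6.20 and 5.86 with vehicle and 6.90 and 7.47 with GSK343 (1.16, SE 0.293, 0.50 to 1.82, adjusted p = 0.432). DNA synthesis genes had medians of 8.90 and 8.93 with vehicle and 9.37 and 9.49 with GSK343, all 14 differences being positive and 0 called. The summed mast cell signal was 11.84 and 11.99 with vehicle and 14.90 and 14.81 with GSK343, nearly all of it from Cpa3 (2.99, adjusted p = 0.0187), the 1 of 7 mast cell genes called, and the median difference of the list was 0.36. All 8 progenitor differences were positive (median 0.92, up to 2.64 for Mpo) and all 10 neutrophil differences negative (median −0.42, down to −3.90 for Mmp8, a granule collagenase gene). Of these 0 were called in the limma fit, where 4 progenitor and 2 neutrophil genes passed an unadjusted p of 0.05. Of the erythroid, macrophage and lymphocyte genes 0 were called and 1, Car2, passed unadjusted. The part of these markers in the histone values was not tested.

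**Figure D4:**
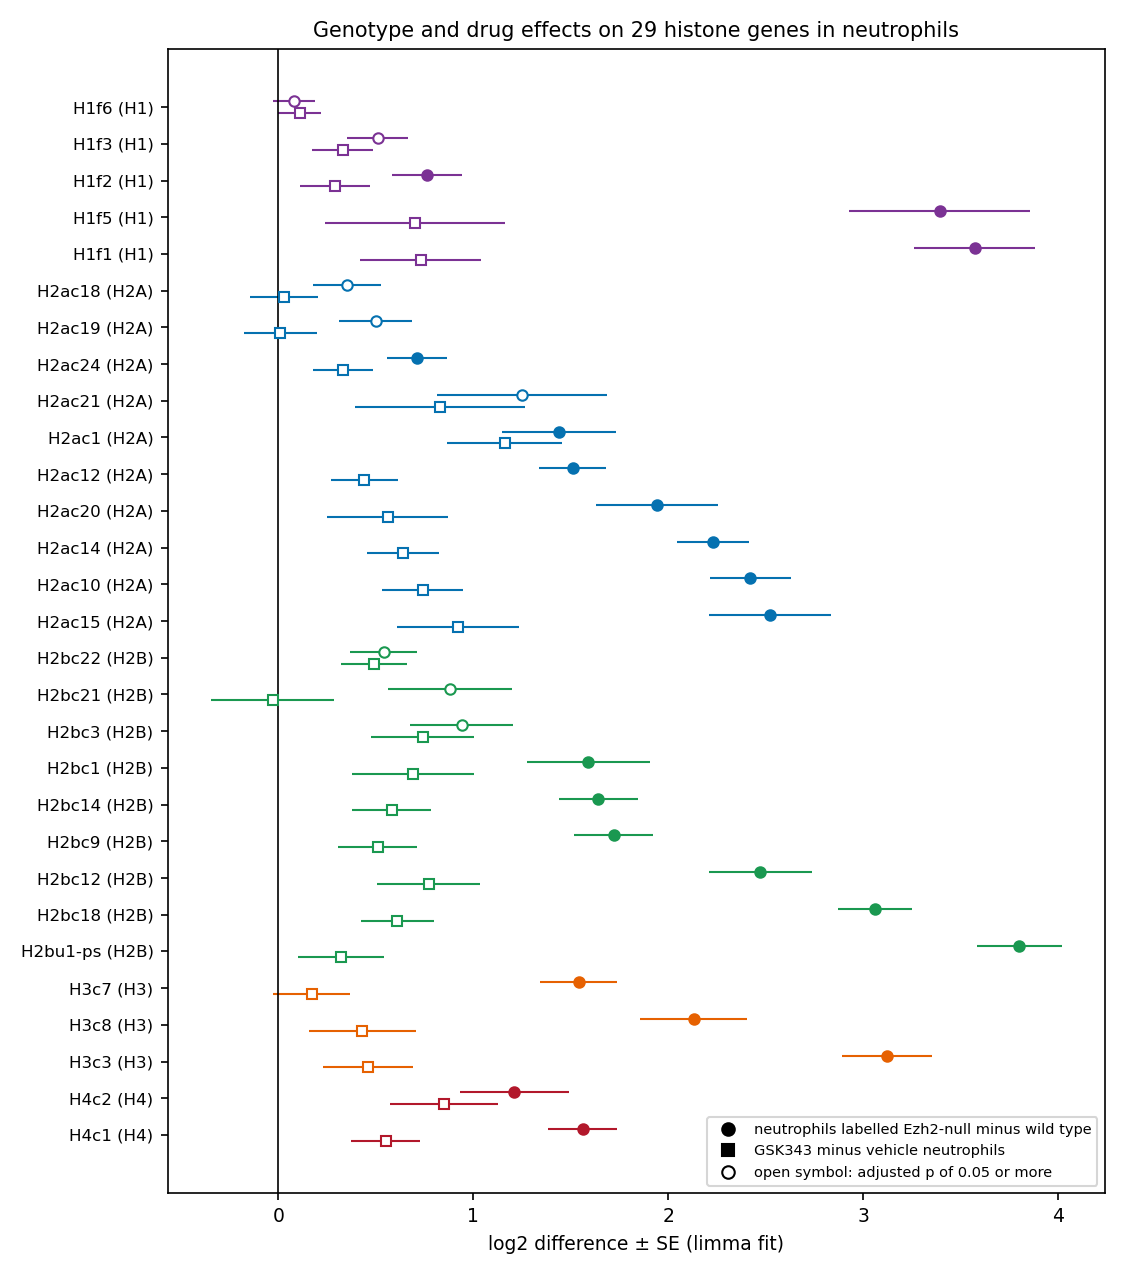
Log2 difference for each of the 29 histone genes between neutrophils labelled Ezh2-null and wild-type (circles) and between GSK343 and vehicle (squares), with bars of 1 standard error from the limma fit and filled symbols for adjusted p under 0.05; genes not above background are drawn at their fitted difference. Circles reach 3.80 (H2bu1-ps), and squares lie between −0.03 and 1.16, none filled.

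The genotype difference in neutrophils exceeded the GSK343 difference for 8 of 29 genes in a test of one against the other, and for 0 the reverse, where 1.97% of clusters were called higher and 1.33% lower. The median was 1.06, against −0.02 over all clusters. The 4 genes called whichever array was left out were H2bu1-ps (adjusted p = 0.000488), H1f1 (2.84, SE 0.439, adjusted p = 0.00883), H3c3 (2.66, SE 0.329, adjusted p = 0.00271) and H2bc18 (2.45, SE 0.266, adjusted p = 0.00138). H2bu1-ps was not above background on either vehicle array (4.75 and 4.58) and on only 1 GSK343 array, so its fitted 3.48 has no exact meaning. H3c7 (1.37, adjusted p = 0.0309) was called but lost the call in most settings that left out an array. H1f5 was at 2.69 (adjusted p = 0.0673) and H2ac1 at 0.28, neither called. H2bc22 and H4c2, not above background in wild-type neutrophils, were also not called. The count ranged from 4, without the second neutrophil array labelled Ezh2-null or the first GSK343 or vehicle array, to 14, without either Ezh2-null undifferentiated array. This comparison crosses the genotype and drug arrays, so the array set, treatment length and vehicle cannot be told apart from the difference it tests. The baselines differed as well. In wild-type neutrophils and with vehicle, H1f1 read 5.69 and 5.76 against 10.45 and 9.98, and H3c3 7.19 and 7.33 against 8.65 and 8.29. H2bc18 read 8.42 and 8.55 against 8.55 and 8.85, and H2bu1-ps 5.60 and 5.38 against 4.75 and 4.58. With GSK343, H1f1 read 11.18 and 10.71, against 9.42 and 9.17 in neutrophils labelled Ezh2-null. The part of these baselines in the calls was not tested.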

How the data were processed

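The values are log2 signals per transcript cluster, deposited by the authors in a series matrix. Expression Console and Transcriptome Analysis Console are named in the submitters' processing notes, with versions, summarisation settings and genome build not given in the sources used here. Per the labels, 250 ng of total RNA was hybridised per array. The 72688 entries hold 6732 control probe sets, which were left out. Symbols came from the platform annotation (30604 clusters with 1 symbol, 2146 with several, 33206 with none).

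No further normalization was applied. limma (version 3.58.1, R 4.3.3) fitted 6 group means to all 65956 clusters on 12 arrays (6 residual and 3.06 prior degrees of freedom), with Benjamini-Hochberg adjustment over all clusters and a call at adjusted p under 0.05, 2-sided. Precision is limited by the 2 arrays per group. Where a group was not above background on either array, a fold is a lower bound: the brighter group's mean against the higher of the background and the dim signal.

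Named genes are, per comparison and type, the 3 called genes with the largest differences and arrays that do not overlap, and the gene with the smallest difference; all H1 genes; and, per list, the 3 largest called plus Slbp and Npat. The members, the lists and this rule were chosen with earlier results of these data known. Promoter matches were searched on both strands of each window. The fit was tested on simulated data. Alternatives covered the arrays fitted, scaling, dim clusters, the prior, the replicate number as a block, the row per gene and each array left out. The labels do not say whether replicate numbers pair the arrays. Same-number deviations correlated weakly, at −0.25 to 0.19.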

Additional observations from a re-analysis of the deposited data

Results flagged for a closer look

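The response to differentiation differed between the lines, by the interaction test of the difference itself, in 16 histone genes. Among linker histones these were H1f1 (4.22) and H1f5 (3.99), on the log2 scale. The H2A genes were H2ac15 (2.56), H2ac10 (2.34), H2ac14 (2.18), H2ac20 (1.93) and H2ac12 (1.29). The H2B genes were H2bc18 (2.86), H2bu1-ps (2.57), H2bc12 (2.29), H2bc9 (1.58) and H2bc14 (1.30). The H3 genes H3c3 (2.64), H3c8 (2.06) and H3c7 (1.35) and the H4 gene H4c1 (1.76) were the others. Standard errors ran from 0.244 (H2ac12) to 0.654 (H1f5), and adjusted p from 0.000553 (H2bc18) to 0.0432 (H2ac20). H2bc9, H3c8 and H4c1 were not above background in wild-type neutrophils, and H2ac12 was above it on 1 genotype array, so their fitted values are no exact sizes. H2ac20, H2bc14 and H3c7 lost the call in most settings that left out an array.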

How the results depend on the processing

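Counts of called histone genes (23, 5, 1, 21, 0, 16 and 8 for wild-type differentiation, Ezh2-null differentiation, genotype before differentiation, genotype in neutrophils, GSK343, the interaction and genotype against drug) stayed within 1.5 times in most settings. Fitting only arrays of the same set gave 0 for genotype before differentiation and 10 for the interaction, and fitting only the arrays compared gave 3 for Ezh2-null differentiation, 0 and 10, with fewer arrays to estimate the spread. The first could not be run for genotype against drug, which crosses the sets. Leaving out each array in turn gave 18 to 24, 4 to 6, 0 to 2, 16 to 22, 0 to 0, 9 to 19 and 4 to 14. Arms left with 1 array were assumed to vary like the others. With the replicate number as a block the counts were 22, 6, 1, 22, 0, 16 and 11. It gave adjusted p of 0.0584 for H3c3 and 0.0508 for H3c7 in wild-type differentiation, both not called. Whether the numbers pair the arrays is not given in the labels. Further quantile normalization turned uncalled differences in Ezh2-null differentiation to −0.0049 for H1f1, −0.19 for H2ac12 and −0.04 for Slbp, H2ac20 to −0.12 before differentiation and H2bc22 to −0.08 in genotype against drug. Median centring gave H2ac12 −0.07, and the mean of both H4c2 rows gave −0.31 before differentiation. The cause was not tested. Scaling moved the median of all clusters by at most 0.07.

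Leaving out an array also turned the sign of differences near 0, none of them called. In Ezh2-null differentiation the ranges were −0.38 to 0.59 for H1f1, −0.44 to 1.09 for H1f5, −0.13 to 0.14 for H2ac12, −0.18 to 0.14 for H2bc3, −0.75 to 0.24 for H3c8 and −0.08 to 0.26 for Slbp. Before differentiation they were −1.36 to 0.16 for H1f5, −0.50 to 0.52 for H2ac20, −0.08 to 0.36 for H2bc9, −0.43 to 0.57 for H3c8, −0.42 to 0.43 for H4c2 and −0.33 to 0.01 for Slbp. H2bc21 ranged over −0.42 to 0.26 in wild-type differentiation, −0.54 to 0.32 in the interaction and −0.22 to 0.17 with GSK343. H2ac19 ranged over −0.13 to 0.16 with GSK343, and H1f2 over −0.0076 to 0.21 in the interaction. In genotype against drug the ranges were −0.11 to 0.04 for H1f6, −0.05 to 0.62 for H2ac1 and −0.15 to 0.25 for H2bc22. With 2 arrays a group, 10 genes above background on some arrays and 2 on none, small differences were not detectable here.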

Other observations

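The 39 histone rows that name several genes, 9 of H2A, 9 of H2B, 7 of H3, 10 of H4 and 4 of mixed type, hold the gene copies whose probes cannot be told apart. In wild-type differentiation 30 were lower and 0 higher (12.2% and 13% of all clusters), with a median log2 difference of −1.21. In the Ezh2-null line 5 were higher and 0 lower (11.7% and 10.7% of all clusters), with a median of 0.21. Between neutrophils, 36 were higher in those labelled Ezh2-null and 0 lower (6.75% and 5.06% of all clusters), with a median of 1.59. The 36 comprised all 9 H2A, all 9 H2B, all 7 H3, all 10 H4 rows and 1 of 4 mixed rows. The interaction was called higher for 24 of 39 rows (2.77% of all clusters), with a median of 1.39. With GSK343 none was called and the median was 0.65. Of these 39 differences 38 were positive, against 50.1% over all clusters, and the H4 rows had a median of 0.82. These rows and the 29 genes may share probes, so they are not separate evidence.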
